A study of Mus musculus with 15 samples.

Results

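Cxcl10 encodes a small chemokine that attracts cells bearing its receptor, Cxcr3, and it is a standard marker of an interferon response. Cxcl10 is described here with 8 further genes of that response (Irf1, Irf7, Irf9, Stat2, Ifit1, Ifit3, Isg15 and Ifitm3) in enteric neural crest-derived cells (ENCDC), the migratory precursors of the enteric nervous system. The 9 genes were taken by symbol from the 17090 genes of the table, each as the transcript that the authors marked as the best for its gene, and all 9 had a row. Cxcl10 was selected on its read counts in mutant and control ENCDC at E11.5, where it was high in the mutant, so its E11.5 values are given as a description with no test. The other 8 genes were included to ask whether further interferon-stimulated genes were high with it.

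The libraries came from mice on a mixed background in which Cre switches on RarαDN, a dominant-negative form of retinoic acid receptor α carried at the Rosa26 locus, and in which the same Cre marks the cells with a fluorescent protein. At E11.5, ENCDC of the stomach were sorted by TdTomato fluorescence from control embryos (Wnt1Cre; ROSA26TdTomato, n = 4) and from mutant embryos (RarαDNLoxP/+; Wnt1Cre; ROSA26TdTomato, n = 4). Wnt1Cre is active in many neural crest derivatives and in the central nervous system. At E13.5, ENCDC of the colon were sorted by EYFP fluorescence from control embryos (RETCreERT2-EYFPTandem, n = 4) and from mutant embryos (RarαDNLoxP/+; RETCreERT2EYFPTandem, n = 3), and all embryos of this age, controls included, had received tamoxifen at E10.5 through the dam. RETCreERT2 is a tamoxifen-dependent Cre placed in the Ret gene. Age, organ, Cre line and reporter therefore changed together between the stages and cannot be told apart. Each library was a single embryonic organ, so the p-values measure the spread between embryos.

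Interferons are secreted signaling proteins, and those of type I are released when cells sense foreign or misplaced nucleic acid. Type I interferons bind the receptor pair Ifnar1 and Ifnar2, and the kinases Jak1 and Tyk2 then activate transcription factors, among them Stat2, which joins Irf9 in the complex ISGF3. ISGF3 binds the interferon-stimulated response element (ISRE) of genes such as Ifit1, Ifit3 and Isg15. Interferon-γ acts on a different element, the gamma-activated site (GAS), and strongly induces Irf1. Cxcl10 responds to both kinds of interferon and to NF-κB, the transcription factor of the inflammatory response.

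The promoter windows of Cxcl10, Isg15 and Ifit1 are shown because these genes share the interferon element but not the expression pattern described here. The windows come from RefSeq (build GRCm38.p6) and run from 250 bases before to 50 bases after the annotated start. They lie at chr5:92348840-92349139 on the minus strand (Cxcl10), chr4:156200769-156201068 on the minus strand (Isg15) and chr19:34640639-34640938 on the plus strand (Ifit1). Capitals mark each match on either strand to the ISRE core, read here as GAAA, any 2 bases and GAAA again.
Cxcl10: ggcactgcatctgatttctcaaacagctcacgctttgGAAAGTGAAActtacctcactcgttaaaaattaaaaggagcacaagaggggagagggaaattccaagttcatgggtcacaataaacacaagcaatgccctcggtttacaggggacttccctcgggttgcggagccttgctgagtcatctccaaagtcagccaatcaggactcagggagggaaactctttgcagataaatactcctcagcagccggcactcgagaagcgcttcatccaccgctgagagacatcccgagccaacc
Isg15: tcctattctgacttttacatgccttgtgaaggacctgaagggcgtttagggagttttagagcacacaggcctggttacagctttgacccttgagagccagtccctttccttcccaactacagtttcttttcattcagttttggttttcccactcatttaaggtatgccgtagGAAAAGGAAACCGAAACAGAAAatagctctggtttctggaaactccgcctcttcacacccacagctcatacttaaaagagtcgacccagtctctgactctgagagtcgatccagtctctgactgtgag
Ifit1: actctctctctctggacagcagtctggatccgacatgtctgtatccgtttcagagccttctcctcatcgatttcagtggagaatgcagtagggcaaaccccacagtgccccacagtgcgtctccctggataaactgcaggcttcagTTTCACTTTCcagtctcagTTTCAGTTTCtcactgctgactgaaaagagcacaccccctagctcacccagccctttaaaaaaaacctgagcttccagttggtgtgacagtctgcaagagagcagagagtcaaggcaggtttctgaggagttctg

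Windows were found for 9 of the 9 genes, with a pair of windows each for Irf1 and Irf9, which gave 11 windows. The Cxcl10 window held 1 ISRE core, at positions −213 to −204 from the start, and 2 matches to the NF-κB consensus, the nearer of them at −103 to −94. The Isg15 window held 3 overlapping ISRE cores and the Ifit1 window 2. Ifit3 and Ifitm3 had 2 each and Stat2 had 1, so that 6 of the 9 genes, and 6 of their 11 windows, had a match. Of all 32851 windows in the set, 3.44% had a match. The 9 genes were chosen as genes of the interferon response, so their high share follows from the choice. The GAS motif TTCNNNGAA was found for Irf1 and Ifitm3, where it overlapped an ISRE core, and it occurred in 8.3% of all windows. The NF-κB consensus was found for Cxcl10 and Irf1 and in 4.51% of all windows. The retinoic acid response elements of the DR5 and DR2 type were looked for on both strands, and neither was matched in the windows of the 9 genes. They occurred in only 0.0974% (DR5) and 0.268% (DR2) of all windows. With such rare motifs, 11 windows were too few for the absence to carry information. These matches describe the letters of the windows and no binding was measured.

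**Figure D1:**
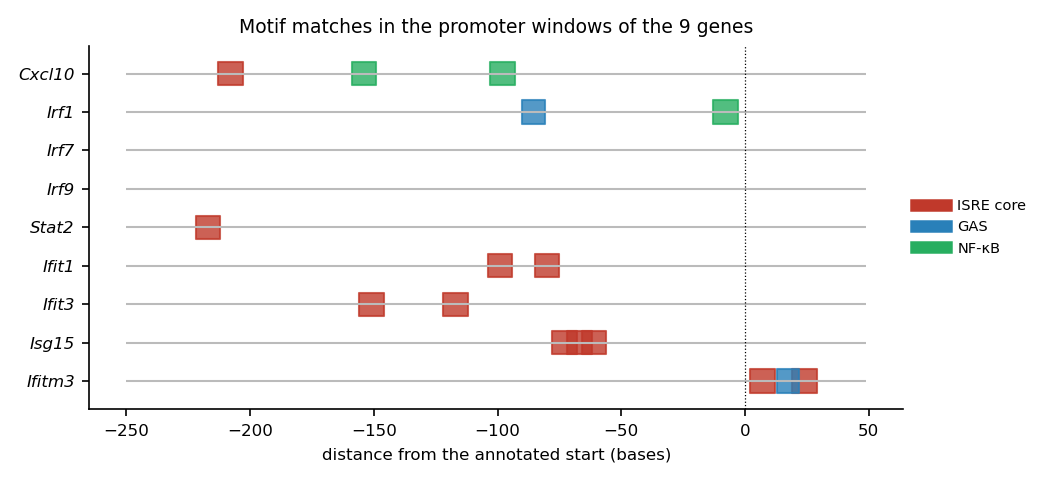
Motif matches in the promoter windows of the 9 genes, by distance from the annotated start in bases (dotted line at 0). Red boxes are ISRE cores, blue boxes GAS motifs and green boxes NF-κB matches on either strand. Cxcl10 and 5 of the other 8 genes have a red box, and the lines of Irf7 and Irf9 are empty. For Irf1 and Irf9 both windows are drawn on the same line.

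Values are raw read counts and CPM, the reads of a gene per unit of library total, scaled by the TMM method within each age. Library totals ran from 6065029 to 12121327 counts over the 15 libraries. The summed level of 9 ENCDC markers, among them Sox10 and Ret, was 2671 to 4184 CPM in E11.5 control, 1511 to 2141 in E11.5 RarαDN, 1535 to 2175 in E13.5 control and 2223 to 2475 in E13.5 RarαDN. The sum thus differed by genotype. At E11.5, 1 of the 9 was called higher and 2 lower (33.3%, beside 6% of all genes). At E13.5, 1 was higher and 0 lower (11.1%, beside 8.34%). The paper reports few RET-stained ENCDC in the stomach of most E12.5 mutants, so Ret is not an independent mark of identity. Only Tfap2b in E13.5 RarαDN was at 0 among the 9 markers. Rara itself was at 77.2 to 112 CPM in E11.5 control and 76.4 to 135 in E11.5 RarαDN, with similarly overlapping ranges at E13.5. Whether reads of the RarαDN transgene were counted under Rara was not determined, so these values do not measure transgene expression. Control libraries 2 and 3 at E13.5 held 753 and 3705 CPM of erythroid transcripts, against at most 74.4 CPM in the other 13 libraries, and results at that age are also given without them where they change.

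Cxcl10 was almost silent in control ENCDC of the E11.5 stomach and readily detected in every mutant library. The 4 control libraries held 9, 5, 1 and 7 reads (0.818, 0.565, 0.115 and 0.641 CPM). The 4 RarαDN libraries held 659, 719, 489 and 592 reads (61.8, 57.9, 74.8 and 69.3 CPM). The groups did not overlap, and the lowest RarαDN library was 70.8 times the highest control library. The group means were 0.535 ± 0.299 CPM in control and 66.0 ± 7.57 CPM in RarαDN (SD, n = 4 each), a ratio of 123. The fitted log2 fold change was 6.88 (SE 0.47), which ranked 19 from the top of the 12427 genes tested at this age. The genes next to Cxcl10 in that order were Tyr above (6.93) and Pax3 below (6.74), and these ranks describe the selection and are not evidence for it. As background, 6% of all genes tested were called at E11.5 by edgeR's quasi-likelihood test at an adjusted p of 0.05, with 3.07% higher and 2.93% lower in RarαDN.

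At E13.5 in the colon, Cxcl10 was low in both genotypes. The control libraries held 20, 36, 37 and 0 reads (2.05, 5.36, 4.86 and 0 CPM) and the RarαDN libraries 13, 0 and 9 reads (2.07, 0 and 0.842 CPM). Both genotypes had a library with no read, and the ranges overlapped. The log2 fold change was −1.67 (SE 1.66, 95% interval −5.36 to 2.03, edgeR adjusted p = 0.614), so neither a fall nor a modest rise could be resolved at this depth. The highest values were in the control libraries 2 and 3 rich in erythroid transcripts, and without both the log2 fold change was −0.09 (adjusted p = 0.989). Per kilobase of transcript, the mean Cxcl10 level was 60.3 CPM in E11.5 RarαDN, 2.81 in E13.5 control, 0.886 in E13.5 RarαDN and 0.489 in E11.5 control. The E11.5 RarαDN libraries stood apart from all others, while the ranges of both E13.5 groups and of E11.5 control overlapped.

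**Figure D2:**
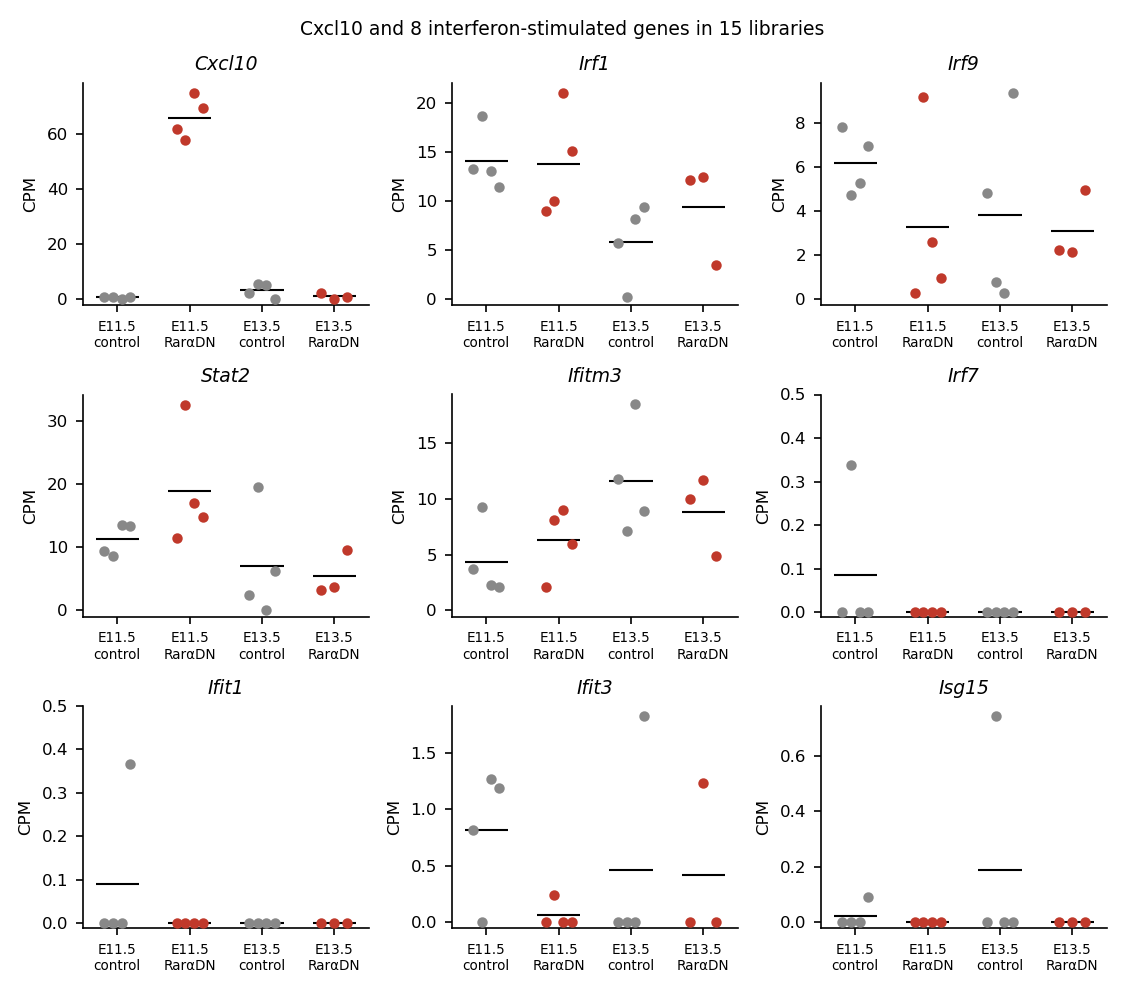
Expression of Cxcl10 and the 8 interferon-stimulated genes in each library, in CPM on a linear axis that differs between panels. Points are libraries (grey control, red RarαDN, n = 4, 4, 4 and 3) and the black line is the group mean. Cxcl10 is at 57.9 to 74.8 CPM in E11.5 RarαDN and at most 5.36 CPM elsewhere, and in the panels of the other 8 genes the points of RarαDN and control overlap at each age.

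The other interferon-stimulated genes did not show the pattern of Cxcl10. Of the 8, only Irf1, Irf9, Stat2 and Ifitm3 had enough reads to be tested at E11.5, and edgeR called 0 of these 4, beside 6% of all genes. With an unadjusted p under 0.05 the count was also 0, and DESeq2 and limma-voom each called 0. At E13.5 edgeR called 0 of 5 tested, Cxcl10 included, where 8.34% of all genes were called (2.78% higher, 5.56% lower), and the count was 0 with an unadjusted p under 0.05 and by DESeq2 and limma-voom. In none of the 4 genes were the E11.5 groups free of overlap, which 15.7% of all tested genes were.

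Among the transcription factors, Stat2, the ISGF3 subunit specific to type I and type III interferon signaling, held 104, 76, 117 and 146 reads in E11.5 control (9.46, 8.59, 13.5 and 13.4 CPM) and 122, 404, 111 and 126 reads in E11.5 RarαDN (11.4, 32.6, 16.98 and 14.8 CPM). RarαDN library 2 was well above the rest, and the other 3 mutant libraries reached into the control range or just above it. The log2 fold change was 0.76 (SE 0.43, 95% interval −0.18 to 1.69, adjusted p = 0.373). Irf9, the DNA-binding subunit of ISGF3, held 86, 42, 46 and 76 reads in E11.5 control (7.82, 4.75, 5.30 and 6.96 CPM) and 3, 114, 17 and 8 reads in E11.5 RarαDN (0.281, 9.19, 2.60 and 0.937 CPM). Library 2 was again the highest of the mutants, above every control, while the other 3 mutant libraries were below every control. The log2 fold change of Irf9 was −0.92 (SE 0.93, 95% interval −2.96 to 1.12, adjusted p = 0.643), and without RarαDN library 2 it was −2.30 (adjusted p = 0.162).

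Irf1, an activator induced most strongly by interferon-γ, had 145, 165, 113 and 125 reads in E11.5 control (13.2, 18.7, 13.01 and 11.4 CPM) and 95, 124, 137 and 129 reads in E11.5 RarαDN (8.90, 9.99, 20.96 and 15.1 CPM). The mutant values lay on both sides of the control range, and the log2 fold change was −0.04 (SE 0.41, 95% interval −0.94 to 0.87, adjusted p = 0.978). Irf7, the factor that amplifies type I interferon production, had 3 reads in E11.5 control library 2 and none in the other 14 libraries. No read in the 4 E11.5 RarαDN libraries allows a level of up to 0.0783 CPM over the group (3 reads, counting error only), so Irf7 was at the limit of detection in every group.

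The antiviral effectors were close to or below the limit of detection as well, apart from Ifitm3. Ifit1, which binds RNA lacking the host cap structure, had 4 reads in E11.5 control library 4 and none in the other 14 libraries. Isg15, a ubiquitin-like modifier, had 1 read in E11.5 control library 4, 5 reads in E13.5 control library 2 and none elsewhere. Both were thus unread in the E11.5 RarαDN libraries in which Cxcl10 had 489 to 719 reads. Ifit3, a partner of Ifit1, had 9, 0, 11 and 13 reads in E11.5 control and 0, 3, 0 and 0 reads in E11.5 RarαDN, the opposite order to Cxcl10, and was too low to be tested at either age.

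Ifitm3, a membrane protein that restricts virus entry and that is also expressed without interferon in many embryonic cells, was detected in every library. It had 41, 82, 20 and 23 reads in E11.5 control (3.73, 9.27, 2.30 and 2.11 CPM) and 22, 100, 59 and 51 reads in E11.5 RarαDN (2.06, 8.06, 9.03 and 5.97 CPM). The ranges overlapped, with a log2 fold change of 0.53 (SE 0.73, 95% interval −1.08 to 2.13, adjusted p = 0.758). Control library 2 had the highest value of all 8, and without it the log2 fold change was 1.26 (adjusted p = 0.408), the highest of the 0.29 to 1.26 found on leaving out each library. Per kilobase, Ifitm3 was the most abundant of the 9 genes in both E13.5 groups (17.1 CPM in control, 13.05 in RarαDN), while Cxcl10 was the most abundant in E11.5 RarαDN (60.3, beside 9.26 for Ifitm3) and Irf1 in E11.5 control (6.80, beside 6.42 for Ifitm3).

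At E13.5 the 4 genes other than Cxcl10 that were tested varied widely between libraries of the same genotype. Stat2 had 23, 131, 0 and 51 reads in control (2.36, 19.5, 0 and 6.21 CPM) and 20, 33 and 103 reads in RarαDN (3.18, 3.71 and 9.63 CPM), with a log2 fold change of −0.34 (SE 1.25, adjusted p = 0.907) that became 0.40 (adjusted p = 0.848) without the control libraries 2 and 3. Irf9 had 47, 5, 2 and 77 reads in control and 14, 19 and 53 in RarαDN, a log2 fold change of −0.29 (SE 1.17, adjusted p = 0.918) that became −1.15 (adjusted p = 0.464) without the same 2 libraries. Neither gene separated the genotypes. Irf1 had 55, 1, 62 and 77 reads in control and 76, 111 and 37 in RarαDN (log2 fold change 0.67, SE 0.96, adjusted p = 0.738, and 0.33 without those libraries). Ifitm3 had 115, 48, 141 and 73 reads in control and 63, 104 and 52 in RarαDN (log2 fold change −0.39, SE 0.54, adjusted p = 0.729, and −0.21 without them). The RarαDN effect on these 4 genes and on Ifit3 was also compared between the stages in a fit of all 15 libraries, and edgeR called 0 of 5 (adjusted p = 0.467 to 0.835), beside 14.5% of all genes. With an unadjusted p under 0.05 the count was also 0, as it was by DESeq2 and limma-voom.

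The wider interferon pathway was examined with lists of known genes. Of 21 interferon ligand genes, 1 had a row, Ifnz, with 2 reads in all, both in E11.5 control. Among 19 tested receptors and signaling genes, edgeR called 1 higher and 0 lower at E11.5, beside 6% of all genes. At an unadjusted p under 0.05 the E11.5 count was 8, and DESeq2 called 3 and limma-voom 0. At E13.5 edgeR called 0, where 3 had an unadjusted p under 0.05 and DESeq2 and limma-voom called 1 each. The gene that edgeR called at E11.5 was Il10rb, a receptor chain shared by interferon-λ and interleukin-10, at 6.56 to 9.37 CPM in control and 11.1 to 35.02 CPM in RarαDN (log2 fold change 1.73, SE 0.42, adjusted p = 0.0363). Leaving out any of control libraries 1 to 4 or RarαDN libraries 2, 3 and 4 ended this call (log2 fold change 1.56 to 1.81, adjusted p up to 0.125). Ifnar2, Ifngr2 and Jak2 were not called by edgeR at E11.5, but their groups did not overlap, as for 15.7% of all tested genes. Ifnar2 (24.4 to 41.7 CPM in control, 52.3 to 75.3 in RarαDN) and Ifngr2 (33.8 to 47.7 and 56.6 to 88.3) were higher in RarαDN. Jak2 was lower (29.2 to 67 and 18.9 to 29.1 CPM).

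Of 22 tested interferon-stimulated effectors, 1 was higher and 1 lower at E11.5 and likewise 1 and 1 at E13.5, 9.09% of the list at each age, near the 6% (E11.5) and 8.34% (E13.5) of all genes. The median log2 fold change of the list was 0.23 at E11.5 (all genes tested, −0.05) and 0.05 at E13.5 (all genes tested, 0.06). Shisa5, a p53-induced membrane protein, rose at E11.5 from 30.6 to 39.6 CPM in control to 59.9 to 81.3 CPM in RarαDN (log2 fold change 0.97, SE 0.23, adjusted p = 0.0288), a call lost without control library 1, 3 or 4 (adjusted p up to 0.126). Ube2l6, the conjugating enzyme that attaches Isg15 to its targets, fell at E11.5 from 17.02 to 27.6 CPM to 2.14 to 5.50 CPM (log2 fold change −2.38, SE 0.47, adjusted p = 0.0128), with every mutant library below every control and the call kept whichever library was left out. At E13.5 Ifitm2, a close relative of Ifitm3, fell from 156 to 229 CPM in control to 91.2 to 106 CPM in RarαDN (log2 fold change −0.97, SE 0.17, adjusted p = 0.0102). That call was lost without RarαDN library 1, 2 or 3 (adjusted p up to 0.0721) and without the control libraries 2 and 3 (−0.82, adjusted p = 0.0611). Parp9, a partner of the ubiquitin ligase Dtx3l, was higher in E13.5 RarαDN (99 reads in 3 libraries) than in control (2 reads in 1 library), a ratio of 65.5 (95% counting interval 17.7 to 548, adjusted p = 0.0449 in edgeR). The Parp9 call was lost on leaving out any of control libraries 1 to 3 or any RarαDN library (adjusted p up to 0.247).

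The list of interferon-γ GTPases and antigen presentation genes contained a gene called at both stages, in opposite directions. B2m, the invariant chain of major histocompatibility complex class I, rose at E11.5 from 37.0, 78.3, 54.1 and 48.1 CPM in control to 124, 87.5, 114 and 111 CPM in RarαDN (log2 fold change 1.00, SE 0.26, adjusted p = 0.0465). At E13.5 it fell from 152, 192, 207 and 123 CPM in control to 82.7, 77.9 and 83.2 CPM in RarαDN (log2 fold change −1.05, SE 0.20, adjusted p = 0.0138). The groups were separate at both stages, and the difference between the effects was 2.11 (SE 0.35, adjusted p = 0.00102), called under each of 23 alternatives. The calls within a stage were less secure. At E11.5 the call was lost without control library 1, 3 or 4 or RarαDN library 1, 3 or 4 (0.85 to 1.02, adjusted p up to 0.156), and at E13.5 without any RarαDN library (adjusted p up to 0.0774) or without both erythroid-rich controls (−0.73, adjusted p = 0.0828). The summed macrophage and leukocyte markers were at 43.8 to 74.5 CPM in control and 81.9 to 365 CPM in RarαDN at E11.5, and at 56.6 to 98.8 and 40.2 to 61.8 CPM at E13.5. Mesenchyme and smooth muscle markers summed to 150 to 352 CPM in E13.5 control and 69.9 to 158 CPM in E13.5 RarαDN. The part of these cells in the B2m levels was not tested.

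Of the 13 tested genes of that list, 1 was higher and 1 lower at E11.5, and 0 higher and 2 lower at E13.5, where 6% and 8.34% of all genes were called in either direction. The median log2 fold change over the list came to 0.53 (E11.5) and −0.84 (E13.5), beside −0.05 and 0.06 for all genes tested. Besides B2m, the aminopeptidase gene Erap1, which trims peptides for class I, was lower at E11.5 (153 reads in control, 6 in RarαDN, log2 fold change −4.60, SE 1.16, adjusted p = 0.0407), a call lost on leaving out any control library or RarαDN library 3 or 4 (adjusted p up to 0.151). At E13.5 Erap1 was higher in RarαDN (180 reads, 6.64 to 7.31 CPM) than in control (11 reads, 0 to 1.49 CPM), though not called. Its effect differed between the stages by −8.65, the opposite direction to B2m, called under each of 23 alternatives. Psmb10, an immunoproteasome subunit, was lower at E13.5, at 19.2 to 27.2 CPM beside 36.8 to 57.8 CPM in control (log2 fold change −1.13, SE 0.27, adjusted p = 0.0329), and leaving out control library 2 or 3, or any mutant library, ended the call (adjusted p up to 0.142). Among 14 tested nucleic acid sensors and adaptors, 0 were called at E11.5 by edgeR, DESeq2 or limma-voom (0 at an unadjusted p under 0.05) and 1 at E13.5, Rnaseh2c, a subunit of the ribonuclease that clears RNA from RNA-DNA hybrids. It was at 98.3 to 117 CPM in RarαDN and 146 to 229 CPM in control (log2 fold change −0.79, SE 0.18, adjusted p = 0.0275), and leaving out control library 2 or 3, or any mutant library, ended the call (adjusted p up to 0.114).

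**Figure D3:**
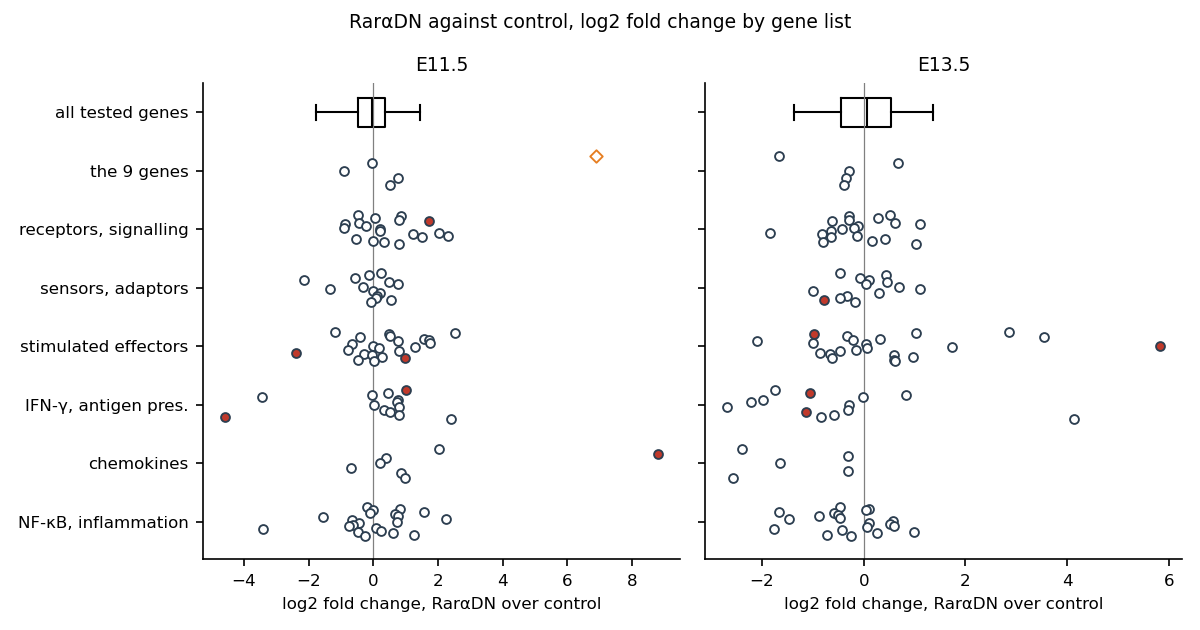
RarαDN over control log2 fold change at E11.5 (left) and E13.5 (right) for the 9 genes and 6 lists of pathway genes, each point a tested gene. Red points passed an adjusted p of 0.05, open points did not, the orange diamond is Cxcl10 at E11.5 (no test), and the box at the top gives the quartiles and the 5 to 95 percentile range of all genes tested. At E11.5 Cxcl10 at 6.88 and Cxcl14 at 8.81 lie far to the right of the other points.

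Ifit2 belongs to the same gene family as Ifit1 and Ifit3 and had far more reads than either. It was chosen for description after its values were seen. It had 524, 218, 460 and 695 reads in E11.5 control and 117, 357, 109 and 219 in E11.5 RarαDN (log2 fold change −1.20, SE 0.39, adjusted p = 0.109). At E13.5 it had 42, 1, 64 and 68 reads in control and 294, 411 and 245 in RarαDN (log2 fold change 2.86, SE 0.79, adjusted p = 0.0528). Neither stage passed the threshold on its own, but the RarαDN effect differed between the stages by −4.00 (SE 0.91, adjusted p = 0.0084), which was called under each of 23 alternatives. This was the opposite direction to B2m, Ifitm2 (difference 1.501, SE 0.32, adjusted p = 0.00579) and Shisa5 (difference 1.64, SE 0.33, adjusted p = 0.00437), whose RarαDN effects were more positive at E11.5, also under each of 23 alternatives. Other effectors moved at E11.5 in the direction of Cxcl10 without being called there. Ifitm1 had 47 reads in E11.5 control (0.549 to 1.92 CPM) and 279 in E11.5 RarαDN (3.83 to 11.1 CPM). Its groups did not overlap, as for 15.7% of all tested genes. Bst2 had 50 reads in E11.5 control (0.366 to 2.18 CPM) and 172 in E11.5 RarαDN (0.937 to 8.06 CPM), with overlap. Over the pathway lists 16 of 116 tested genes (13.8%) differed between the stages, close to the 14.5% of all genes.

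**Figure D4:**
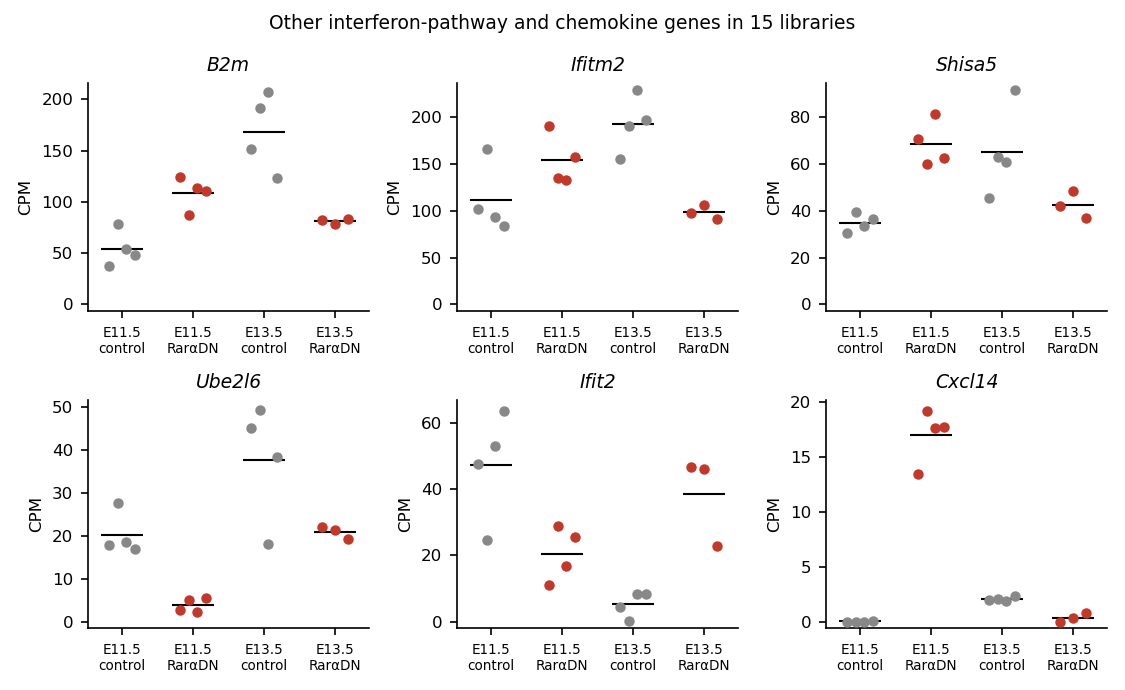
CPM of 6 other genes in each library (points, grey control and red RarαDN, n = 4, 4, 4 and 3) with the group mean as a black line, on linear axes that differ between panels. B2m and Shisa5 are higher in RarαDN than in control at E11.5, whereas Ube2l6 and Ifit2 have lower means, and at E13.5 B2m and Ifitm2 are lower and Ifit2 is higher in RarαDN.

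Most of the listed chemokine and receptor genes had too few reads to be tested. Of 44 listed chemokine and receptor genes, 31 had a row, 7 were tested at E11.5 (1 higher, Cxcl14, and 0 lower) and 5 at E13.5, where edgeR and limma-voom called 0, DESeq2 called 1 and 1 had an unadjusted p under 0.05. Of all genes tested, edgeR called 6% at E11.5 and 8.34% at E13.5. Cxcl14, a chemokine of the same CXC class as Cxcl10, had 0, 0, 0 and 1 reads in E11.5 control and 143, 238, 115 and 151 in RarαDN. The ratio of reads per total was 667 (95% counting interval 119 to 26400, edgeR adjusted p = 0.000252), and the call was kept under each of 18 alternatives. At E13.5 Cxcl14 had 14 to 19 reads in each control library and 0, 3 and 8 in RarαDN (adjusted p = 0.316). Cxcl11, which shares the receptor of Cxcl10 and is likewise induced by interferon, had 6 reads in E11.5 control and 10 in E11.5 RarαDN, each over 4 libraries, and none at E13.5. Cxcr3 itself had 37 and 34 reads in E11.5 RarαDN libraries 2 and 4 and none in the other 13 libraries.

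The NF-κB and inflammatory list showed 0 of 21 genes called at E11.5 and 0 of 20 at E13.5 by edgeR, beside 6% and 8.34% of all genes. At an unadjusted p under 0.05 the counts were 6 and 1, DESeq2 called 3 and 0, and limma-voom 1 and 0. The share of all genes at the unadjusted threshold was not computed for this or any other list, so nothing is read from those counts. The most abundant genes of the list were the immediate early genes Jun and Fos, at E11.5 log2 fold changes of 0.61 (SE 0.26, adjusted p = 0.233) and −0.26 (SE 0.35, adjusted p = 0.750). Relb, not called by edgeR, was at 3.73 to 5.20 CPM in E11.5 control and 9.27 to 15.6 CPM in RarαDN. Its groups did not overlap, as for 15.7% of all tested genes. Those of Nfkbib (27.5 to 53.6 and 53.1 to 77.7 CPM) and Nfkbia (21.4 to 44.1 and 16.4 to 48.7 CPM) overlapped. The median log2 fold change over the list came to −0.02 (E11.5) and −0.34 (E13.5), beside −0.05 and 0.06 for all genes tested.

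Macrophages and other leukocytes make and receive interferon and express Cxcr3 in some of their classes. At E11.5 the summed level of 17 of their markers was higher in every RarαDN library than in any control library, although the cells had been sorted for the Cre reporter. The sum was 61.7, 74.5, 44.0 and 43.8 CPM in control and 135, 365, 81.9 and 293 CPM in RarαDN, and each of the 17 had reads in both groups. Of 10 that could be tested, 2 were called higher and 0 lower, where 3.07% and 2.93% of all genes were. Some single markers, such as Csf1r and Ptprc, overlapped between the groups. C1qb, a complement component of macrophages, was at 0 to 4.18 CPM in control and 16.1 to 78.9 CPM in RarαDN (log2 fold change 4.94, SE 0.96, adjusted p = 0.0124), while Ptprc, the pan-leukocyte gene, was at 0 to 0.791 CPM in control and 0 to 4.45 CPM in RarαDN. RarαDN library 3 had the lowest marker sum (81.9 CPM) and the highest Cxcl10 (74.8 CPM), and library 2 the highest sum (365 CPM) and the lowest Cxcl10 (57.9 CPM). Without library 2 the Cxcl10 log2 fold change was 6.94, and it was 6.57 to 7.15 whichever library was left out. Cxcr3 reads were limited to libraries 2 and 4, which had the highest marker sums. The part of these cells in the levels of Cxcl10, B2m, Il10rb and Cxcl14 was not tested, and in sorted bulk material fewer cells of a type and less RNA per cell cannot be told apart. Lymphocyte and natural killer cell markers summed to at most 2.14 CPM, mesenchyme and smooth muscle markers to 160 to 344 CPM in E11.5 control and 284 to 654 in RarαDN, and endothelial markers to 203 to 439 and 310 to 532 CPM. The endothelial sum hides opposite moves, since of 7 tested markers 2 were called higher and 3 lower (median log2 fold change −4.52), beside 6% of all genes in either direction. Pecam1 and Cldn5 had no read in RarαDN and Cdh5 none in either group.

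**Figure D5:**
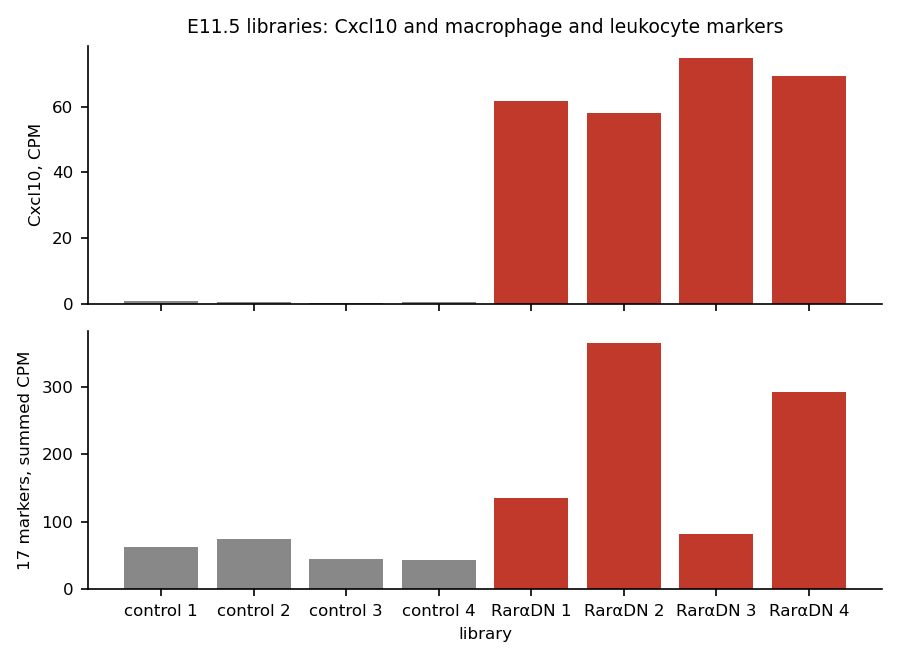
Cxcl10 level (top, CPM) and the summed level of 17 macrophage and leukocyte markers (bottom, CPM) in each E11.5 library, with bars from 0 in grey for control and red for RarαDN. Both are higher in all 4 RarαDN libraries, and Cxcl10 lies within 57.9 to 74.8 CPM while the marker sum runs from 81.9 to 365 CPM.

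The genes whose log2 CPM followed Cxcl10 most closely over the 15 libraries included none of the other 8. Among 13412 genes, the highest Pearson r were those of Cryab (0.91), Sqstm1 (0.904), Hist1h1c and Ly6a (0.903 each), Sat1 and Mt1 (0.897 each), Tagln (0.894), Gadd45b (0.891), and Hspa2 and Prss12 (0.889 each). All 15 points share the 4 groups, so this likeness reflects mainly the high E11.5 RarαDN libraries. It is a description with no test, and over the 7 E13.5 libraries alone the r of the same 10 genes was 0.387 to 0.837. Cryab, a small heat shock protein, averaged 2.43 CPM in E11.5 control, 179 in E11.5 RarαDN, 5.85 in E13.5 control and 0.891 in E13.5 RarαDN. Gadd45b, a stress-induced growth arrest gene, averaged 0.626, 52.3, 0.55 and 0.106 CPM in the same order. Ly6a, a surface antigen inducible by interferon, had no read in E11.5 control and 170, 59, 22 and 48 reads in E11.5 RarαDN. Among the 9 genes, r with Cxcl10 was 0.232 for Stat2, −0.0037 for Ifitm3, −0.025 for Irf1, −0.497 for Irf9 and −0.653 for Ifit3, and Irf7, Ifit1 and Isg15 were too low for a value.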

How the data were processed

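ENCDC were sorted from single embryonic organs, RNA was amplified by SMART chemistry, libraries were made with Nextera XT and sequenced single-end on a HiSeq instrument in 2 runs that the authors combined. Reads were mapped with RUM, of which the version was not given in the sources used here, nor was the genome build. The authors deposited raw read counts per transcript (22365 transcripts), quantile-normalized log2 values and 4 columns of their own comparisons (fold changes and statistics). The deposited counts were used here. The deposited log2 values entered no test, and the comparison columns were not used.

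The transcript marked as best was kept for each of 17090 genes. Counts were fitted with edgeR 4.0.16 (R 4.3.3; TMM scaling, filterByExpr with a minimum count of 10, robust quasi-likelihood test), with a separate fit for each age and a fit of all 15 libraries for differences between ages. p-values were adjusted by Benjamini-Hochberg over all genes passing the filter, with a threshold of 0.05. The 95% intervals used the moderated degrees of freedom of the fit. Correlations used log2 CPM with a prior count of 2. Intervals and limits from read numbers cover counting error only, since reads carried no molecular identifiers.

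The 9 genes and all lists were chosen with earlier results of these data known. A few genes of the lists are not reported here and were left out of the list values. Named pathway genes were those called at either age, the 2 most abundant where none was called, ligands with a read, and the 10 genes most correlated with Cxcl10. Pathway genes called only in the difference between the ages were named outside this rule. So were Ifitm1, Cxcl11, Cxcr3, Nfkbia and single cell type markers such as Csf1r, C1qb and Ptprc. Alternatives were RLE or no scaling, no filter or a filter of 1 CPM, DESeq2 1.42.0, limma-voom (limma 3.58.1), the quasi-likelihood fit with its robust option off, a single fit over all 4 groups, the replicate number as a block, the transcript with the largest total, each library left out, and E13.5 without control libraries 2 and 3. Leaving libraries out of the fit between ages was added after the data were seen. The statistics were tested on simulated data. No 2 libraries of a group agreed within sampling noise. Promoter windows were those of RefSeq (GRCm38.p6), and motifs were matched in Python. Those sources do not state whether counting used strand.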

Additional observations from a re-analysis of the deposited data

Results flagged for a closer look

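Single libraries stood far from the others of their group in 12 of 55 gene and group pairs of 4 libraries. Most were a few reads over zeros in the other 3 libraries, where the rule marks any read at all. The rate of about 1 in 20 that the rule has for normally spread values therefore does not apply, and no excess over chance is read from the count. In E11.5 control, Irf7 was at 0.339 CPM in library 2 (3 reads), Ifit1 at 0.366 CPM in library 4 (4 reads), and Isg15 and Cxcl14 at 0.0915 CPM each in library 4 (1 read each). In E11.5 RarαDN, Ifit3 was at 0.242 CPM in library 2 (3 reads) and Parp9 at 4.83 CPM in library 2 (60 reads), both at 0 in the other 3. In E13.5 control, Ifit3 was at 1.83 CPM (15 reads) and Parp9 at 0.243 CPM (2 reads) in library 4, and Isg15 at 0.745 CPM (5 reads) and Erap1 at 1.49 CPM (10 reads) in library 2. For better detected genes, Ube2l6 was at 27.6 CPM in E11.5 control library 2, above the other 3 at up to 18.4 CPM, and Rnaseh2c was at 64.7 CPM in E11.5 RarαDN library 3, below the 141 to 156 CPM of the other 3.

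The RarαDN effect differed between the E11.5 stomach and the E13.5 colon, by the test of the difference, for 16 of 116 tested pathway genes (13.8%), close to the 14.5% of all genes. The log2 effect was more positive at E11.5 by 2.11 for B2m, 1.501 for Ifitm2, 1.64 for Shisa5, 1.39 for Rnaseh2c, 1.52 for Psmb10, 1.17 for Psme1, 3.91 for Bst2, 1.20 for Ifnar2, 1.14 for Ifngr2, 3.31 for Relb and 1.23 for Nfkbib. It was more negative at E11.5 for Ifit2 (−4.00), Erap1 (−8.65) and Jak2 (−1.94). Cxcl14 (adjusted p = 0.00018) and Dtx3l (adjusted p = 0.0119) also differed, and since both had groups with 3 or fewer reads no size is given. Under 23 alternatives (22 for Dtx3l), 7 of the 16 were called each time (B2m, Ifitm2, Shisa5, Ifit2, Erap1, Cxcl14 and Dtx3l), whereas the call was lost under 14 for Psmb10, 11 for Bst2, 10 each for Ifngr2, Nfkbib and Jak2, 9 for Relb, 7 each for Psme1 and Ifnar2 and 2 for Rnaseh2c. Without E13.5 control libraries 2 and 3, Relb was 1.45 (adjusted p = 0.297). Age, organ, Cre line and reporter cannot be told apart in these differences.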

How the results depend on the processing

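No alternative led to a call among the 4 tested members at E11.5 other than Cxcl10 or the 5 tested at E13.5, under 18 alternatives each. The Cxcl10 log2 fold change at E11.5 stayed between 6.57 and 7.15 on leaving out each library. The direction of values near 0 was not stable. Irf1 at E11.5 ran from −0.27 to 0.18 over left-out libraries. Irf9 at E13.5 was 0.59 with limma-voom and ran from −0.80 to 0.66 over left-out libraries. Stat2 at E13.5 was 1.41 with limma-voom and 0.40 without control libraries 2 and 3, and ran from −1.01 to 0.94. For the difference between the ages, Stat2 was −0.55 with limma-voom and ran from −0.17 to 1.84, Irf9 was 0.34 without control libraries 2 and 3, and Ifit3 ran from −8.35 to 1.85. The causes were not tested.

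Counts of calls moved more. At E11.5, 745 genes were called, 1363 with DESeq2 and 324 to 1143 over left-out libraries. At E13.5, 1008 genes were called, 1723 with DESeq2, 649 with all 4 groups in a single fit, 212 without control libraries 2 and 3, and 25 to 1258 over left-out libraries. For the difference between the ages, 1950 were called, 909 without control libraries 2 and 3 and 1196 to 2342 over left-out libraries. Of the 22 tested effectors, 2 were called at each age, 4 with DESeq2 at each, 0 at E13.5 without control libraries 2 and 3, and 1 to 4 (E11.5) and 0 to 3 (E13.5) over left-out libraries. Without control libraries 2 and 3, Psmb10 was −0.90 (adjusted p = 0.167), Rnaseh2c −0.54 (adjusted p = 0.133) and Parp9 5.08 (adjusted p = 0.158) at E13.5, no longer called. Calls also ended with all 4 groups in a single fit (Il10rb, Erap1, Parp9, Rnaseh2c, Psmb10), with limma-voom (Il10rb, Parp9) and with no filter (Erap1, B2m at E11.5, Parp9).

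Control and mutant libraries share replicate numbers. The deviations of same-numbered libraries had r of 0.308, −0.256, 0.0967 and 0.132 at E11.5 and of 0.0569, 0.0455 and 0.052 at E13.5. These lay within the r of differently numbered libraries (−0.426 to 0.365 at E11.5, −0.135 to 0.145 at E13.5). The numbers were therefore not taken as pairs. With the replicate number as a block, 350 genes were called at E11.5, 0 and 1 of the effectors at E11.5 and E13.5, and Irf9 and Stat2 at E13.5 were 1.41 and 0.82. Among the named pathway genes the block ended the calls of Il10rb, Erap1, Ube2l6, B2m and Shisa5 at E11.5 and of Parp9, Psmb10 and Rnaseh2c at E13.5. Depth limits Irf7, Ifit1, Ifit3 and Isg15, which had at most 33 reads in any group.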
